A study of Mus musculus with 2 samples.

Results

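De novo lipogenesis, the making of fatty acids from carbohydrate, was followed in mouse liver through 10 genes of the pathway: Slc25a1, Acly, Acss2, Acaca, Acacb, Mid1ip1, Thrsp, Fasn, Me1 and Pnpla3. They were chosen by name, as the enzymes of the route from mitochondrial citrate to palmitate, the proteins that act on its carboxylase step, the source of reducing power and a lipid droplet protein made with them, and the rule applies no threshold to a measured value. The 10 genes were proposed with earlier results of these data known, so their share past 2-fold is a description only. They are 10 of the 20652 genes that could be named on the array, and they had 18 of its 39402 probes. All 10 were well above background on at least 1 array, as were 16342 genes in all.

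The samples were liver RNA of male mice in 2 groups, fasting and feeding. RNA of 3 mice was pooled in each and hybridised to 1 array of the Whole Mouse Genome design with a single dye, Cy3. The fast is given as 16 h in one label and as an overnight fast of 14 to 16 h in another, and the feeding group is described both as fed ad libitum and as fed after a fast. The study's methods name young adult C57BL/6J males as its wild-type mice and give no other treatment, transgene or deletion for these groups. With 1 array per group no difference has a replicate check, so that no p-value or standard error between groups exists, and pooling hides the spread between mice. The 2 arrays lay on 1 slide and were read in 1 scan.

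In this pathway, citrate leaves the mitochondrion and is cleaved to acetyl-CoA, acetyl-CoA is carboxylated to malonyl-CoA, and fatty acid synthase joins malonyl units into palmitate at the expense of NADPH. In liver the pathway runs when carbohydrate is plentiful, and its genes are known targets of SREBP-1c, which acts downstream of insulin, of ChREBP, which responds to glucose metabolites, and of LXR. Thrsp, Me1 and other lipogenic genes are also textbook targets of thyroid hormone.

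All 10 genes matched an entry in the RefSeq promoter table of the assembly GRCm38.p6, which held 11 windows for them. The 250 bases before the start are printed for the 4 genes with the largest changes, and for Slc25a1, which differed least, so that the letters in front of genes that did and did not differ can be read side by side. Each runs 5′ to 3′ on the strand of the gene and ends at the base before the start. Capitals mark matches on either strand to the NF-Y box CCAAT, whose reverse complement is ATTGG, to the inverted SRE pattern TCANNTGA and to the E-box CACGTG.
Fasn, chr11:120824548-120824797, minus strand: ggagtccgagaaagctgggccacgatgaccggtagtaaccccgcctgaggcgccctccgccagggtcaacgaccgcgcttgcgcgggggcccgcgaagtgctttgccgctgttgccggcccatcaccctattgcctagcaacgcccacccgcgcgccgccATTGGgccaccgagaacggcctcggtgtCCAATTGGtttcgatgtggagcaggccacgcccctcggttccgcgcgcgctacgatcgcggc
Pnpla3, chr15:84167566-84167815, plus strand: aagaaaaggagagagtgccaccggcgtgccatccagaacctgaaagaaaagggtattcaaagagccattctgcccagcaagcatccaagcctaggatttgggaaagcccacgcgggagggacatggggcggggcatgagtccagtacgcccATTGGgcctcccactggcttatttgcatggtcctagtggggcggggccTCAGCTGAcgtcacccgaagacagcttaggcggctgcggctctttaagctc
Mid1ip1, chrX:10717115-10717364, plus strand: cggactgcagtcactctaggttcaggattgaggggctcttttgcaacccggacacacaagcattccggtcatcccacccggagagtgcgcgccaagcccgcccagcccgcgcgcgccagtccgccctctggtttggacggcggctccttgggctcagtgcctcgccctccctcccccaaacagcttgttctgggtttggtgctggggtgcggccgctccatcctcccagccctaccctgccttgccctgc
Thrsp, chr7:97417551-97417800, minus strand: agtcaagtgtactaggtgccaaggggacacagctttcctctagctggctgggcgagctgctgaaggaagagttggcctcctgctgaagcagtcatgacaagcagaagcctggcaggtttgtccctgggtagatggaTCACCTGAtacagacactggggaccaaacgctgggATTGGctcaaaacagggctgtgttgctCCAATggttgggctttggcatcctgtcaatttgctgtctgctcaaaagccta
Slc25a1, chr16:17928220-17928469, minus strand: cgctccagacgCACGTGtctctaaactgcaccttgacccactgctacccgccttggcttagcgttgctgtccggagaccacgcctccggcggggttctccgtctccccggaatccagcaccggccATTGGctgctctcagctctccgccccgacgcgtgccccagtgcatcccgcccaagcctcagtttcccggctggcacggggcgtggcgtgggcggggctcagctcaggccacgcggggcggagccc

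The NF-Y box was the motif found in the most windows. The Fasn window held 3 matches, at 90 to 86, 62 to 58 and 59 to 55 bases before the start, the last pair overlapping in the run CCAATTGG. The Thrsp window held 2, and Pnpla3, Slc25a1, Acss2, Acacb and the second window of Me1 held 1 each, so that 7 of the 11 windows had the box, against 33.8% of all 32851 windows in the table. No match to the box lay in the windows of Mid1ip1, Acly or Acaca or in the first window of Me1. The box was thus present in front of genes at least 2-fold higher upon feeding (Fasn, Thrsp, Pnpla3). It was also present in front of genes under 2-fold (Slc25a1, Acss2, Acacb and, in the second window, Me1). It was absent in front of Mid1ip1 and Acaca, which were at least 2-fold higher, and of Acly, which was under 2-fold.

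The inverted SRE pattern stood in 2 of the 11 windows, as TCACCTGA at 114 to 107 bases before the Thrsp start and as TCAGCTGA at 51 to 44 bases before the Pnpla3 start, and in 7.09% of all windows. The E-box CACGTG was found in 1, that of Slc25a1 at 239 to 234 bases before the start, against 6.02% of all windows. The GC box GGGCGG, not in capitals above, was in 6 of 11 and in 32.7% of all. In those 6 windows 58.4% (Pnpla3) to 72.0% (first window of Me1) of the letters were G or C, beside a median of 52.4% over all windows. The Fasn window, without the GC box, had 69.2%. The SRE TCACCCCAC, a pair of E-box-like CANNTG sequences 5 bases apart and a direct repeat of AGGTCA with a gap of 4 (DR4) had no match in the 11 windows, and were rare in all windows at 0.496%, 0.639% and 0.0152%. A match is a run of letters and not a measured binding site, and these windows leave out distant elements. The single windows of Acaca and Acacb lie 65.8 kb and 19.2 kb inside the outer end of the gene in the table, at the start of one transcript, and the second window of Me1 lies 8.64 kb inside it. The Fasn window printed above lies 0.619 kb inside that end.

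Upon feeding, 5 of the 10 genes had a signal at least 2-fold higher than upon fasting, Fasn, Pnpla3, Mid1ip1, Thrsp and Acaca, and 0 were at least 2-fold lower. Among all 16342 genes, 3.29% were at least 2-fold higher and 4.63% at least 2-fold lower, together 7.91%. The other 5 differed by less than 2-fold, Acly and Me1 in the direction of feeding and Slc25a1, Acss2 and Acacb in the direction of fasting. The median change of the 10 genes was 1.09 on the log2 scale, beside 0.03 for all genes. It was 0.35 with the mean and 0.65 with the median of all of a gene's probes in place of the brightest probe. Both take in the probes of Acly and Acaca that were below background on both arrays. With the mean of the probes above background, chosen after seeing the data, it was 0.69. A log2 change is the quantile-normalized log2 signal upon feeding minus that upon fasting, and the value of a gene is that of its brightest probe over both arrays. In whole liver, fewer cells of a type and less RNA per cell cannot be told apart.

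**Figure D1:**
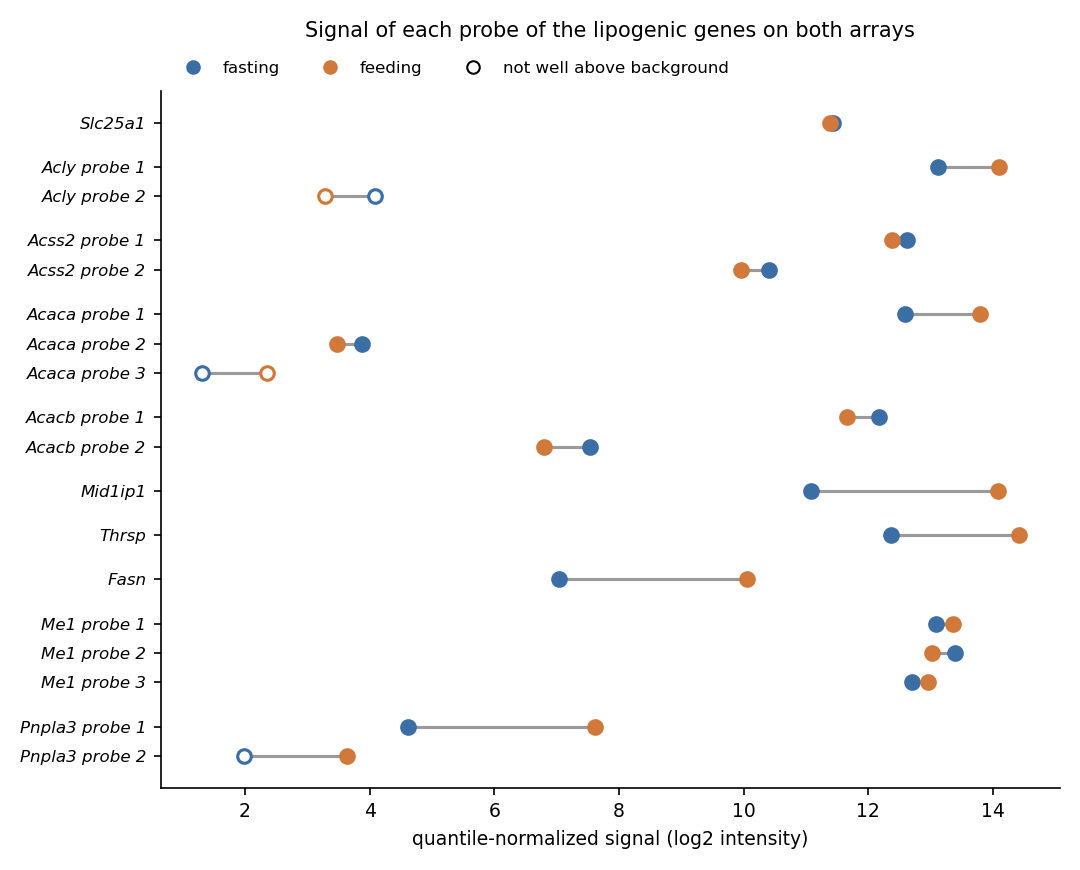
Quantile-normalized signal (log2 intensity) of the 18 probes of the lipogenic genes on the fasting and feeding arrays, 1 point per array joined by a line. Open circles mark signals not well above background. The longest lines are those of Fasn, Mid1ip1 and probe 1 of Pnpla3, with differences of 3.02, 2.99 and 3.00. Levels of different probes are not comparable with each other.

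The yardstick available for a difference is the scatter of replicate spots, from 318 probes printed 6 to 10 times on each array. For each probe, the SD of the difference between 1 spot on each array was taken from the 41 such probes nearest in signal. It covers the measurement on the array and neither the mice nor the labelling. The error given after ± for a processed signal is the one the scanner software assigned to that spot.

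Supply of acetyl-CoA to the cytosol was measured through Slc25a1, Acly and Acss2, and only the cleavage enzyme among them came near a 2-fold difference. Slc25a1, the mitochondrial citrate carrier (transcript NM_153150), had a processed signal of 2790 ± 279 upon fasting and 2640 ± 264 upon feeding, a log2 change of -0.05, which is 0.59 times the spot SD of 0.08. Its direction was not settled, being 0.03 with each array scaled by its 75th percentile and 0.15 with scaling by the median. Acly, ATP-citrate lyase, which splits citrate into acetyl-CoA and oxaloacetate, went from 8960 ± 896 upon fasting to 17400 ± 1740 upon feeding on its probe for NM_001199296, a log2 change of 0.97, or 1.96-fold, and 11.7 times the spot SD. That is just short of 2-fold, and Acly passed it under both scalings, at 1.07 and 1.19. The second Acly probe, for NM_134037, did not stand well above background on either array, with signals of 17.9 and 9.35, and gives no change.

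Acss2 encodes the cytosolic synthetase that makes acetyl-CoA from acetate. Both of its probes, for NM_019811, were well above background on both arrays and lower upon feeding. The brighter went from 6340 to 5300, a log2 change of -0.23. The other went from 1390 to 963, a change of -0.45. Neither probe was near 2-fold, at 1.17-fold and 1.36-fold, and both differences exceeded the spot SDs of 0.08 and 0.11. Of all genes, 73.6% had a higher change than Acss2, 59.2% a higher one than Slc25a1 and 3.53% a higher one than Acly.

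The carboxylation of acetyl-CoA to malonyl-CoA is the committed step, and the genes of its 2 enzymes differed in opposite directions. Acaca encodes acetyl-CoA carboxylase 1, whose malonyl-CoA in the cytosol is the substrate of fatty acid synthase. Its bright probe, for NM_133360, had a signal of 6170 ± 617 upon fasting and 14100 ± 1410 upon feeding. The log2 change was 1.22, or 2.32-fold, and 1.96% of genes had a larger one. The other probes of Acaca, for the same transcript, were near background. The second had signals of 15.6 ± 3.41 and 10.6 ± 1.67, over local backgrounds of 42.5 and 23.0, and a change of -0.41 against a spot SD of 0.58. The third did not stand well above background, at 3.53 and 5.08. The Acaca call thus rests on 1 probe, and with the mean of its 2 probes above background the change was 0.40, under 2-fold.

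Acacb encodes acetyl-CoA carboxylase 2, which sits at the mitochondrial surface and whose malonyl-CoA restrains the uptake of fatty acids for oxidation. Both of its probes, for NM_133904, were lower upon feeding. The first went from 4670 ± 467 to 3170 ± 317, a log2 change of -0.52, or 1.43-fold. The second went from 199 ± 20.2 to 104 ± 10.5, a change of -0.74, or 1.67-fold. These are 5.93 and 4.04 times the spot SD, and below 2-fold. Acacb had the lowest change of the 10 genes, with 12.5% of all genes below it, and it was lower upon feeding in all 8 alternative ways of processing, between -0.63 and -0.32. Of these, dropping the bound for dim probes could not move Acacb, and the summaries of its 2 probes all gave the same value.

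Mid1ip1 and Thrsp, whose proteins act on the carboxylase step, were among the genes that differed most. Mid1ip1 encodes MIG12, which binds acetyl-CoA carboxylase and promotes its assembly into active filaments. Its probe, for NM_001166635, had a signal of 2200 ± 220 upon fasting and 17200 ± 1720 upon feeding, a log2 change of 2.99, or 7.95-fold. This is 35.4 times the spot SD, the highest such ratio among the 18 probes, and 18 of 16342 genes had a larger increase. Thrsp encodes Spot 14, a relative of MIG12 first known for its response to thyroid hormone. Its probe, for NM_009381, went from 5330 ± 533 to 21500 ± 2150, a change of 2.05, or 4.15-fold, and 0.434% of genes had a larger one. Both genes had a single probe, bright on both arrays, so that only 4 of the 8 alternatives, the scalings and the background corrections, could move them. Under these 4 Mid1ip1 lay between 2.93 and 3.20 and Thrsp between 2.12 and 2.25, at least 2-fold higher in each.

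Fasn encodes fatty acid synthase, which carries out all the reactions from malonyl-CoA to palmitate. Its single probe, for NM_007988, had a signal of 142 ± 14.6 upon fasting and 1040 ± 104 upon feeding. The log2 change was 3.02, or 8.09-fold, and the ratio of the processed signals before normalization was 7.32. It was the largest change of the 10 genes and the 17th largest increase of all genes, next to Pnpla3 at rank 18 and Mid1ip1 at rank 19. These 3 changes differed by less than 1 spot SD and have no order. The Fasn change was 2.24 with normexp and 2.72 with the raw median signal, and 2.98 and 3.11 under the 2 scalings, at least 2-fold higher in each.

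Reducing power for the synthase comes in part from Me1, the cytosolic malic enzyme, which turns malate into pyruvate with the production of NADPH. It had 3 bright probes for NM_001198933, and they did not move in the same direction. The first went from 8820 to 10500, a log2 change of 0.26. The second went from 10700 to 8240, a change of -0.37. The third went from 6730 to 7870, a change of 0.26. Each difference was over 3 times the spot SD of 0.08, so the disagreement between probes of this gene was larger than the spot scatter while all 3 stayed under 1.30-fold. The first and second probes had nearly the same mean signal so the choice of the brightest probe set the sign for Me1. The mean of the 3 was 0.05.

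Pnpla3, of the patatin-like phospholipase family, encodes a lipid droplet protein and is itself a known SREBP-1c target. Its probe 1, for NM_054088, was dim upon fasting, with a signal of 26.1 ± 4.33, and reached 182 ± 18.2 upon feeding. The log2 change was 3.00, or 7.97-fold, and 13.7 times the spot SD of 0.22, the largest spot SD among the 5 lipogenic genes past 2-fold. Before background subtraction the median signal of this spot was 73.5 over a local background of 27.0 upon fasting and 222.5 over 23.0 upon feeding. Without background subtraction the change was 1.93, and with normexp, which added an offset of 50 to every spot, it was 1.14. Probe 2 was not well above background upon fasting, at 4.11 ± 4.02, and had 11.8 ± 2.16 upon feeding. Its measured change of 1.66 had the same sign, but no fold is given because the signal upon feeding was below the lowest signal counted as well above background upon fasting, 14.4.

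**Figure D2:**
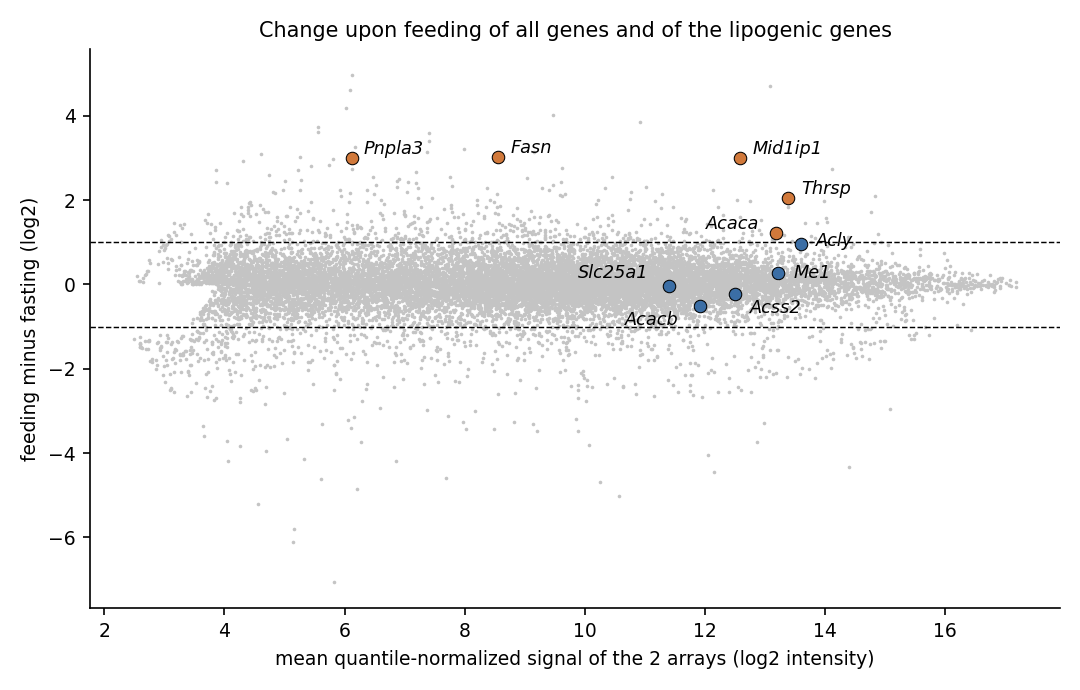
Log2 change upon feeding against the mean quantile-normalized signal (log2 intensity) for the 15185 genes with a change to plot (grey) and for the lipogenic genes (large points, orange where at least 2-fold). Dashed lines mark 2-fold. Fasn, Pnpla3 and Mid1ip1 lie highest of the 10, at changes of 3.02, 3.00 and 2.99, and Acacb lies lowest, at -0.52.

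Taken probe by probe, 16 of the 18 probes were well above background on at least 1 array. Of these 16 probes, 5 were at least 2-fold higher upon feeding (31.2%) and 0 at least 2-fold lower, beside 3.14% higher and 4.83% lower of 28451 probes. The remaining 11 comprised 7 probes that were lower and 3 that were higher by under 2-fold, and probe 2 of Pnpla3. Of the 5 genes with several probes above background, 3 (Acss2, Acacb and Pnpla3) had all measured changes of 1 sign, and Acaca and Me1 did not. For Pnpla3 this takes in probe 2, which gives no fold. Probes of a gene read the same RNA pool and are not replicates.

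Across the 8 alternatives, which exchange the scaling, the background correction, the summary of probes or the bound for dim probes, Fasn, Pnpla3, Mid1ip1 and Thrsp were at least 2-fold higher upon feeding throughout, although for Fasn, Mid1ip1 and Thrsp, with a single probe each, only 4 of the 8 could give another value. Acaca did so in 6 of 8 and Acly in 2 of 8. For Acaca, dropping the bound could not give another value, and the median of its probes, 1.05, was the probe below background on both arrays. Me1 never reached 2-fold, with changes between 0.05 and 0.49, and Acss2 lay between -0.34 and -0.02. Scaling by the median raised the median of all genes by 0.12, to 0.14, and relative to that Slc25a1 was at 0.01, Acss2 at -0.17 and Fasn at 2.96.

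**Figure D3:**
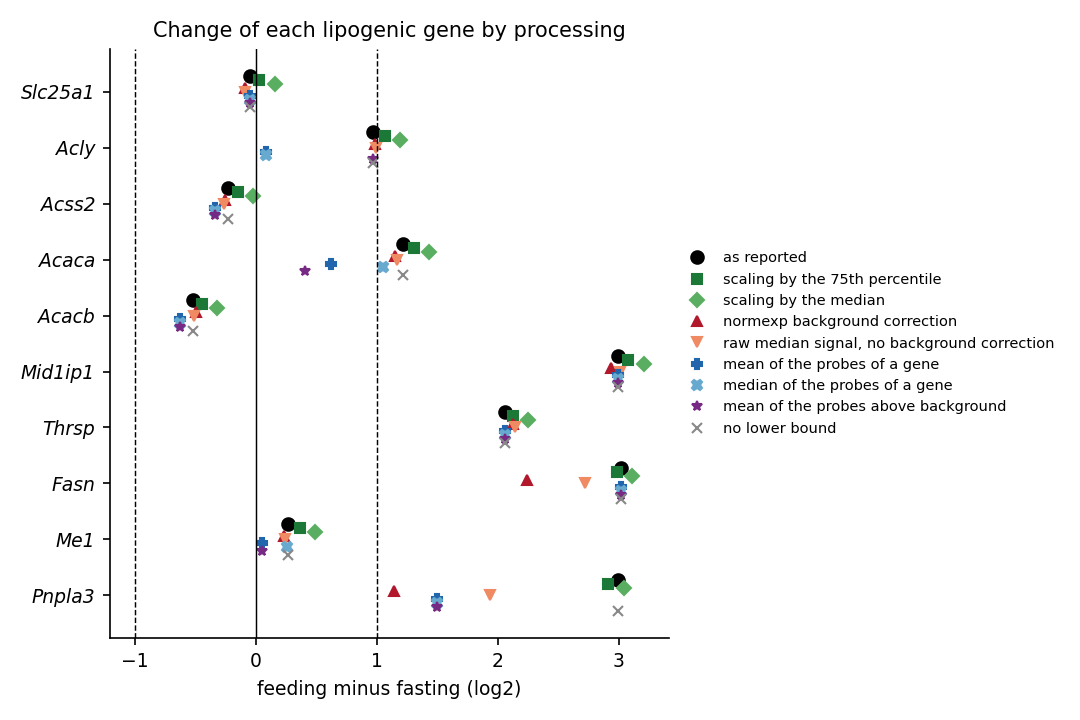
Log2 change upon feeding of each lipogenic gene as reported (black) and under 8 alternatives of processing (symbols). Dashed lines mark 2-fold. The widest spread is that of Pnpla3, from 1.14 to 3.04, followed by Acly, from 0.08 to 1.19, whereas Mid1ip1 and Thrsp hardly moved. The Acly value of 0.08 takes in its probe below background on both arrays.

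To place the 10 genes in their pathway, 7 lists of neighbouring steps were counted in the same way, with 91 of 93 genes measured. Over the 7 lists 5 genes were at least 2-fold higher (5.49%) and 8 at least 2-fold lower (8.79%), beside 3.29% and 4.63% of all genes, and the median change was 0.06. The lists were chosen with earlier results of these arrays known, so their counts, medians and gene values are a description only.

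Of the genes that feed citrate and NADPH into the pathway, 0 of 14 measured members differed 2-fold, beside 7.91% of all genes, with a median of 0.08. The list holds the pentose phosphate enzymes G6pdx, Pgd and Tkt. The largest differences were those of Cs, citrate synthase, at 0.67 and of Idh1, the cytosolic NADP-dependent isocitrate dehydrogenase, at -0.39. In the list of acetyl-CoA sources, the 17 members also had a median of 0.08, and Pdk4, the kinase that switches off pyruvate dehydrogenase, was the exception. Its signal went from 4200 upon fasting to 783 upon feeding, a change of -2.36, or 5.12-fold. Pdp1, the phosphatase that acts against such kinases, changed by 0.71 and Acot12, a cytosolic acetyl-CoA hydrolase, by -0.70.

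Of the 14 genes that control acetyl-CoA carboxylase or use malonyl-CoA, 2 were at least 2-fold lower and 0 higher, with a median of -0.07. Cpt1a, the malonyl-CoA-sensitive gate to mitochondrial oxidation, had normalized signals of 37600 upon fasting and 17900 upon feeding, a change of -1.07. Trib3, which encodes a pseudokinase that can direct the carboxylase to degradation, went from 3310 to 1610, at the 2-fold threshold. The subunits of AMP-activated protein kinase, which phosphorylates and inhibits the carboxylase, lay between -0.10 (Prkab1) and 0.43 (Prkaa2).

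Downstream of palmitate the genes split. Elovl6, which lengthens palmitate to stearate, was 3.96-fold higher upon feeding, from 3500 to 13700, and Agpat2, an acyltransferase of phosphatidic acid synthesis, 2.14-fold higher, from 1180 to 2420. Elovl3, an elongase of very long chains, was 11.1-fold lower, from 3170 to 267. Dgat1 changed by -1.07, from 1490 to 664, and Gpam by -1.01, from 310 to 135, both acyltransferases of triglyceride synthesis. Dgat2, a brighter acyltransferase gene of the list, changed in the other direction by 0.55, from 26200 to 37300, under 2-fold. The 16 genes of elongation, desaturation and esterification had a median of -0.50, the lowest of the 7 lists. Scd1, the stearoyl-CoA desaturase, changed by -0.83, from 62200 to 33500.

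Among the 17 transcriptional regulators, 2 were at least 2-fold higher and 2 at least 2-fold lower, with a median of 0.16. Srebf1, the gene of SREBP-1, changed by 3.15, from 206 to 1680, which is 8.90-fold. Insig1, an endoplasmic reticulum protein that retains the SREBP precursor, was 2.47-fold higher, from 133 to 288. Ppargc1b, a coactivator of SREBP-1c and other factors, changed by -1.62 and Usf2, an E-box factor, by -1.26. Mlxipl, the gene of ChREBP, and its partner Mlx were higher by 0.83 and 0.74, under 2-fold. The LXR gene Nr1h3 changed by 0.33 and the thyroid hormone receptor gene Thrb by 0.16.

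**Figure D4:**
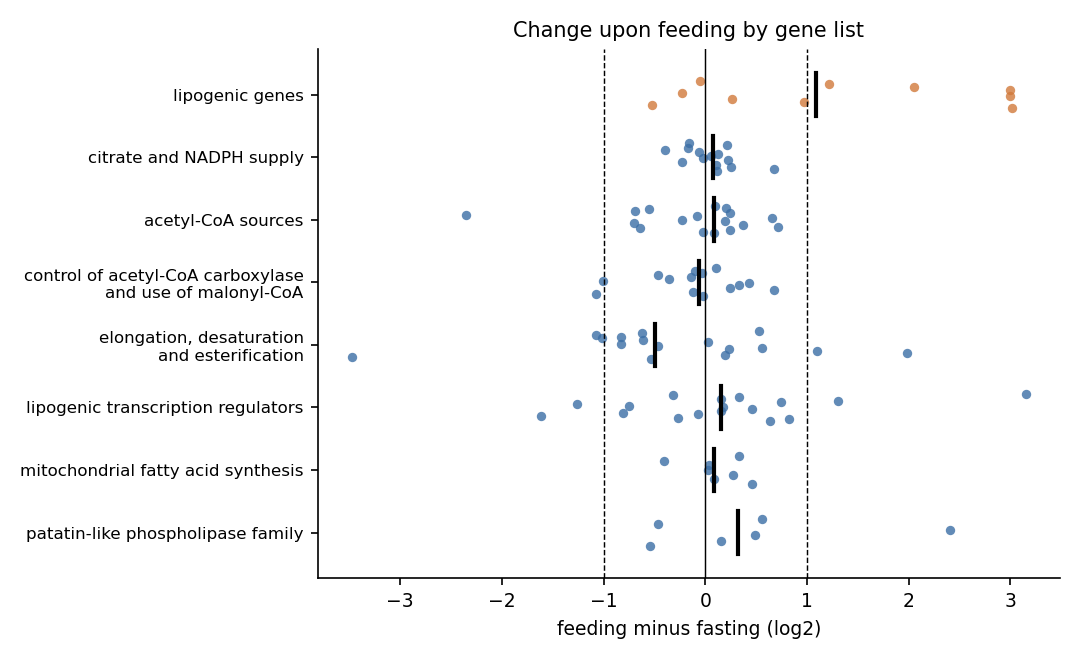
Log2 change upon feeding of each measured gene of the lipogenic genes (orange) and of 7 lists of neighbouring steps (blue), with the median of each list as a bar and dashed lines at 2-fold. The lipogenic genes have a median of 1.09, and the medians of the other lists lie between -0.50 and 0.32.

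The tissue label was checked against marker genes. Hepatocyte markers were bright on both arrays, with Alb at 159000 upon fasting and 142000 upon feeding, and 0 of 7 differed 2-fold, although Tat was lower by 1.96-fold. Since adipocytes express the lipogenic genes too, their markers were read beside them: Adipoq and Lep were not well above background on either array, Plin1 stood well above it upon feeding only, at 9.77, and Cfd went from 126 to 203, a change of 0.89, while Retn changed by 0.42. Summed signals in this paragraph are of quantile-normalized signals, whereas signals of single genes are processed signals. The summed signal of the 4 measured adipocyte markers was 9120 upon fasting and 8850 upon feeding, nearly all of it from Fabp4, which changed by -0.06. Of other cell types, the summed signal of 5 leukocyte markers was 16100 upon fasting and 9280 upon feeding, and the 4 with a measured change lay between -0.89 (Adgre1, a macrophage marker) and -0.37 (Cd3e). That of 4 bile duct markers was 454 and 1710, nearly all of it from Sox9 at 2.11, with Krt19 at -0.31 and Epcam at 0.08. The 4 stellate and endothelial markers summed to 4730 and 4570, with Pecam1 at -1.04, from 497 to 214, Kdr at -0.11 and Lrat at 0.24. The 5 acinar markers summed to 502 and 382. Among them Cela2a was at -2.70, from 52.7 to a dim 7.23, and Ctrb1, the brightest, at -0.40, whereas Cel was at 0.11 and Cela1 at 0.24. Des and Cpa1, well above background on 1 array only, gave no fold. Red blood cell markers summed to 23700 and 22600, and the muscle genes Myh4 and Ckm were not well above background. Their part in the lipogenic changes was not tested.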

How the data were processed

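Total RNA was labelled with Cy3 and hybridised to the Whole Mouse Genome array, and the spots were read by the authors with Agilent Feature Extraction 11.0.1.1. The deposited values are one intensity per spot: a median signal with its local background, and a processed signal that is background-subtracted and not normalized between arrays. The deposited value table of the series equals the mean local background for 44397 of 44397 spots on both arrays (relative tolerance 1e-06) and was not used.

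The log2 processed signals of a probe's spots were averaged, leaving out 1377 control spots and the spots marked as outliers (123 on the fasting and 98 on the feeding array), and quantile normalized between arrays, with the 2-fold threshold of the study's methods. Probes were named through their transcript accession in the RefSeq table of GRCm38.p6, which matched 27218 of 39402. The array design names mm9, so only promoter coordinates of the table's own build are given. The brightest probe over both arrays stood for a gene, which was counted where this probe was well above background on at least 1 array (63.1% of transcript spots upon fasting, 72.3% upon feeding; 0 saturated). A probe not well above background on 1 array gives a lower bound. The number of arrays limits the precision.

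Named were the 10 genes with all their probes, list genes past 2-fold and otherwise at most 3 of a list with the largest change. G6pdx, Pgd, Tkt, Scd1, Dgat2, Prkab1, Prkaa2, Nr1h3, Thrb, Mlx and Pnpla2 were named besides these. The 10 genes were proposed, and the lists chosen, with earlier results of these data known. As alternatives, arrays were scaled by their 75th percentile or median, or values were made with normexp with an offset of 50 (limma 3.58.1, R 4.3.3) on the median signal, no background correction, mean or median of probes, measured changes in place of bounds, 1.5-fold and 3-fold thresholds, other filters and, chosen after seeing the data, the mean of the probes above background. The normalization and the 2-fold call were tested on simulated data, with all probes set well above background and changes put into bright probes only. The bound for dim probes, the background filter and the choice of the brightest probe were not tested.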

Additional observations from a re-analysis of the deposited data

How the results depend on the processing

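The count of lipogenic genes at least 2-fold higher was 5 as reported. It lay between 4 and 6 under the 8 alternatives that kept this threshold, beside 1.32% to 5.36% of all genes. At 1.5-fold 6 were higher, beside 10.5% of all genes, and at 3-fold 4, beside 0.967%. In each of these alternatives 0 were lower, though at 1.5-fold 1 probe of the 16 was. The filters on dim probes were run for the counts over all genes and lists only. The median change of the lipogenic genes was 1.19 with scaling by the 75th percentile and 1.31 with scaling by the median. It was 0.35 with the mean and 0.65 with the median of all of a gene's probes, also those below background. With the mean of the probes above background, an alternative chosen after seeing the data, it was 0.69. No lipogenic gene changed from at least 2-fold in one direction to the other. For the other genes only counts and medians were compared between alternatives, not the direction of each gene.

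Of all genes, 1293 (7.91%) differed at least 2-fold as reported, 537 higher and 756 lower. With normexp 527 did (215 higher and 312 lower), or 3.23%, and with the raw median signal 751 (329 and 422), or 4.6%. With no filter on dim probes 2023 did (838 and 1185), or 9.8%. Without the lower bound 876 were higher. At 1.5-fold the count was 3451 (1714 and 1737), or 21.1%, and at 3-fold 469 (158 and 311), or 2.87%. The higher calls made up 41.5% as reported, 52.5% with scaling by the median and 53.5% without the lower bound. Of the pathway list genes 13 differed as reported, 6 with normexp, 29 at 1.5-fold and 6 at 3-fold.

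No paired analysis was possible because each group had 1 array, and for the same reason no replicate could be left out. Naming by the gene name column and the series' value table were not run, since no such column was used here and the table holds the local background. Spot SDs of 0.42 for the dimmest of 3 groups of genes, 0.14 for the middle and 0.10 for the brightest limit the dim probes, those of Pnpla3 and the minor probes of Acaca and Acly.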

Other observations

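Fatty acids are also made inside mitochondria by a largely separate set of enzymes, in a pathway known for supplying the lipoic acid precursor. Of its 8 listed genes 7 were measured, and 0 differed at least 2-fold, beside 7.91% of all genes, with a median change of 0.09. The ends of the range were Aasdhppt, which attaches the phosphopantetheine arm of acyl carrier protein, at 0.46 and Oxsm, the mitochondrial ketoacyl synthase, at -0.40. Mcat, the malonyltransferase, changed by 0.33 from 1920 to 2330.

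The patatin-like phospholipase family holds 6 listed relatives of Pnpla3, of which 1 was at least 2-fold higher and 0 lower upon feeding. Pnpla5, a close relative, was not well above background upon fasting, at 3.94, and had a signal of 71.1 upon feeding, which is at least 5.31-fold higher. The other 5 genes stayed under 2-fold. Pnpla2, which encodes the adipose triglyceride lipase, went from 25600 to 18300, a change of -0.46. Pnpla1 changed by 0.56 and Pnpla8 by -0.55, and the median of the 6 was 0.32.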
